A study of Mus musculus with 4 samples.

Results

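The genes of the melanin-concentrating hormone (MCH), orexin and CART peptide systems were described in RNA from brain tissue of the parasubthalamic nucleus, which adjoins the back of the lateral hypothalamus. The 6 genes were chosen by name from 25044 listed entries, as the 3 peptide precursors Pmch, Hcrt and Cartpt and the 3 receptors Mchr1, Hcrtr1 and Hcrtr2, and all 6 were found. They were picked with their levels in these libraries already known, so the levels and differences of the 6 genes are a description and carry no test. The study sequenced 4 libraries, called replicates 1 to 4, from naive mice of the inbred C57BL/6 strain. The mice carried no engineered allele and received no treatment that the labels name, no stressed animals were sequenced, and the 4 libraries form 1 group. Neither age nor pooling is stated, and the labels do not say whether each library came from a separate animal.

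MCH and orexins are peptides made by separate, intermingled neurons of the lateral hypothalamus and zona incerta, which send axons through most of the brain. Orexin neurons are known for keeping animals awake and for arousal on food restriction, and MCH neurons for promoting sleep and feeding. Many MCH neurons also make CART peptides, which other hypothalamic cell groups make too. Pmch is cut into MCH and neuropeptide EI, Hcrt into orexin A and orexin B, and Cartpt into CART peptides. Mchr1 is the MCH receptor of rodents and signals mainly through inhibitory Gi and Go proteins, while Hcrtr1, which prefers orexin A, and Hcrtr2, which binds both orexins, excite cells mainly through Gq. Receptor transcripts lie in the cells that receive the peptides, and precursor transcripts in the cells that make them.

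The upstream sequences of the 3 precursor genes are shown because these genes had the largest differences between libraries of the 6. Each sequence is the 250 bases before the annotated start, read in the direction of the gene, from RefSeq on GRCm38.p6. Capitals mark matches to 4 short motifs that were picked with these sequences in view, searched on both strands: TATAAA (the core of a TATA box), TGANTCA (an AP-1 element), TGACGTCA (a cAMP response element) and TAATTA (a homeodomain core). The last 3 read the same on both strands, and no match overlapped another. The Pmch window lay at chr10:88090822-88091071 on the plus strand, the Hcrt window at chr11:100762932-100763181 on the minus strand and the Cartpt window at chr13:99900684-99900933 on the minus strand. The Cartpt window precedes the RefSeq start but lies inside the gene span that GENCODE M21 gives, whose own start is further upstream.
Pmch: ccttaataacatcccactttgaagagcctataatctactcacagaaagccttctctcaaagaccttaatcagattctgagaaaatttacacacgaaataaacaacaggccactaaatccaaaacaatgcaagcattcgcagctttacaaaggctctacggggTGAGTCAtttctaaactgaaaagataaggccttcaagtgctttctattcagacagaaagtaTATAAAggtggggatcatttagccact
Hcrt: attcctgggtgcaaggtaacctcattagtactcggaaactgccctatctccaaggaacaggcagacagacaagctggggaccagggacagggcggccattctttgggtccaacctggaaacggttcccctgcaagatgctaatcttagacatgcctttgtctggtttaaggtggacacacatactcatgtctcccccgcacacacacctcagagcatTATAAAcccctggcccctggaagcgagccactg
Cartpt: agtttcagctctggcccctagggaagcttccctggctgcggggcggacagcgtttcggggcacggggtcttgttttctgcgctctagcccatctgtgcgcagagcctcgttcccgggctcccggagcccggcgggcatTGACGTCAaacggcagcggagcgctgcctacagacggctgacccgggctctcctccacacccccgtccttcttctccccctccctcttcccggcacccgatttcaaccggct

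The upstream windows of Pmch and Hcrt both held TATAAA close to the start, beginning 27 and 33 bases before it, and that of Cartpt did not. TATAAA was present anywhere, on either strand, in 12.4% of 32851 windows of the same length in the RefSeq table, which holds several start sites for some genes. The share of windows with it close to the start was not counted. The Pmch window also held TGAGTCA, a match to TGANTCA, 88 bases before the start, and 6.75% of windows hold that motif. The Cartpt window held TGACGTCA 112 bases before the start, a motif found in 1.55% of windows. TAATTA, found in 4.84% of windows, was in none of the members' windows, and the upstream windows of Mchr1, Hcrtr1 (3 start sites) and Hcrtr2 held none of the 4 motifs. The bases G and C made up 38.4% of the Pmch window, 53.6% of the Hcrt window and 66.8% of the Cartpt window, beside a median of 52.4% over all windows. A match is a run of letters and does not show that a factor binds there.

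All levels are given in FPKM, which divides fragments by the length of the transcript and by the depth of the library. The unit was read from the values, because neither labels nor headers name it. Totals per library were 428612 to 442836 FPKM, and 13 genes of the mitochondrial genome took 20.7% ± 1.44 of them (SD, n = 4). The depth in reads is unknown, since the deposited values could not be turned back into whole reads. Genes listed for the labelled region were present in every library: of the parasubthalamic list, Slc17a6, the vesicular glutamate transporter VGLUT2, averaged 80.0 ± 10.5 FPKM and the calretinin gene Calb2 178 ± 40.8 FPKM (SD, n = 4), and none of its 5 genes was listed at 0. Slc17a6 is used by orexin and MCH neurons too, so presence of these genes does not show how much of the tissue came from the labelled region. The libraries also differed in genes of neighbouring regions. The summed level of 6 thalamus genes was 300 FPKM in replicate 3 and 22.1 to 58.3 FPKM in the others, and that of 9 medial hypothalamus genes was 225 FPKM in replicate 2 and 28.5 to 52.4 FPKM in the others. Replicates 2 and 3 therefore stand apart, and most levels, differences and ranges that rest on them are given with and without them.

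By mean level the precursors were the most abundant genes of these systems, and each varied more between libraries than the receptors did. Pmch (ENSMUSG00000035383, GRCm38 chromosome 10, 88091072 to 88092375) was at 325, 257, 54.9 and 429 FPKM in replicates 1 to 4. Replicates 1, 2 and 4 were high and replicate 3 was low. Its mean of 266 ± 158 FPKM (SD, n = 4) ranked 174 among 13044 genes and loci averaging at least 1 FPKM, and the mean was 337 FPKM without replicate 3.

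Hcrt (ENSMUSG00000045471, GRCm38 chromosome 11, 100761069 to 100762931), the orexin precursor gene, was at 119, 7.72, 2.60 and 91.4 FPKM in replicates 1 to 4. Replicates 1 and 4 were high and replicates 2 and 3 low, with no library near the mean of 55.3 ± 59.1 FPKM (SD, n = 4). The SD was larger than the mean, and the mean was 33.9 FPKM without replicate 1, 71.2 without replicate 2 and 72.9 without replicate 3. In bulk tissue, fewer orexin cells in a sample and less RNA per orexin cell cannot be told apart.

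Cartpt (ENSMUSG00000021647, GRCm38 chromosome 13, 99898489 to 99901091) was at 86.5, 175, 113 and 238 FPKM in replicates 1 to 4, with a mean of 153 ± 67.6 FPKM (SD, n = 4). Its lowest library was replicate 1, the library in which Hcrt was highest. Replicate 4 was highest for both Pmch and Cartpt.

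By mean level the receptors lay below all 3 precursors and close together, although Hcrt was near them in replicates 2 and 3. Mchr1 (ENSMUSG00000050164, GRCm38 chromosome 15, 81235499 to 81238964) was at 6.07, 5.23, 4.42 and 6.15 FPKM in replicates 1 to 4, a mean of 5.47 ± 0.813 (SD, n = 4). Hcrtr1 (ENSMUSG00000028778, GRCm38 chromosome 4, 130130217 to 130139359) was at 5.0, 6.01, 5.04 and 5.85 FPKM in the same order, a mean of 5.48 ± 0.532 (SD, n = 4). Both were at a similar level in all 4 libraries. Hcrtr2 (ENSMUSG00000032360, GRCm38 chromosome 9, 76225880 to 76323856) was at 3.17, 3.20, 1.52 and 2.56 FPKM, a mean of 2.61 ± 0.787 (SD, n = 4), and replicate 3 was its low library. GENCODE M21 places the antisense RNA Gm27234 over 1270 bases of Hcrtr2, and its level was not analysed here. By mean level, Mchr1 lay above 35.2% of the 13044 genes and loci, Hcrtr1 above 35.3% and Hcrtr2 above 17.0%, while Pmch lay above 98.7%, Cartpt above 97.2% and Hcrt above 90.3%.

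**Figure D1:**
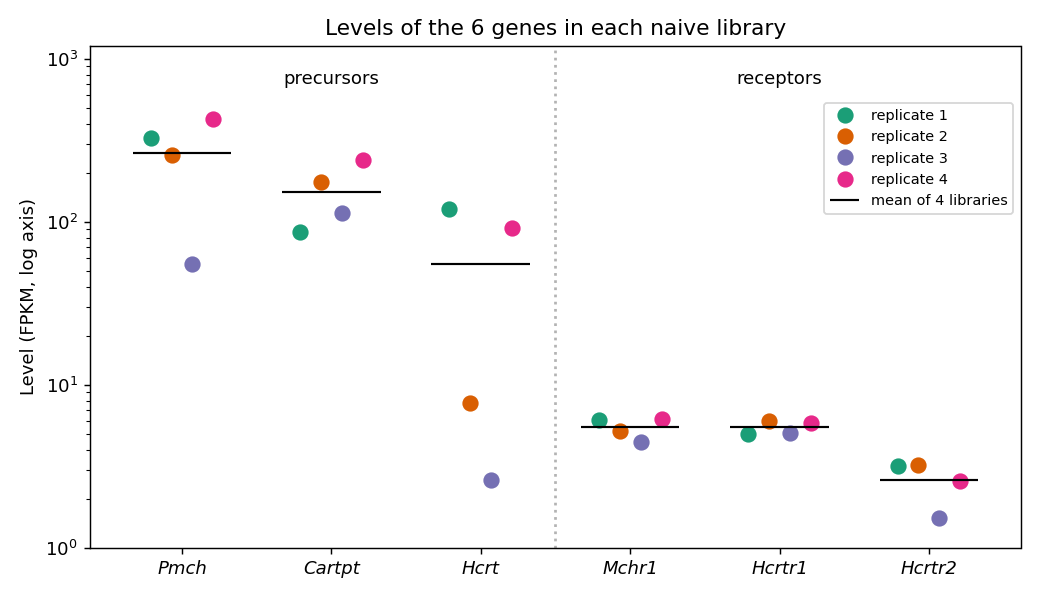
Levels in FPKM (log axis) of the 3 precursors and the 3 receptors; each point is 1 of the 4 naive libraries and the line is their mean. The precursors spread over a wide range, from 2.60 to 119 FPKM in Hcrt, while the receptors stay between 1.52 and 6.15 FPKM.

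Ordered by mean log2(FPKM + 0.1), the 6 genes ran Pmch, Cartpt, Hcrt, Hcrtr1, Mchr1 and Hcrtr2. Neighbours in the upper part of this order did not differ beyond their spread. Pmch minus Cartpt was 0.57 ± 1.22 on the log2 scale (SD, n = 4) and positive in 3 of 4 libraries, since Cartpt was the higher gene in replicate 3. Cartpt minus Hcrt was 2.70 ± 2.72 and positive in 3 of 4, since Hcrt was the higher gene in replicate 1. Hcrt minus Hcrtr1 was 1.98 ± 2.68, as described next. Hcrtr1 minus Mchr1 was 0.01 ± 0.23, with Hcrtr1 the higher gene in 2 of 4 libraries. Hcrtr2 minus Mchr1 was -1.08 ± 0.35 and negative in 4 of 4, so in FPKM Hcrtr2 was set apart from its neighbour in every library. That difference depends on the length scaling, because the longest annotated transcript has 3761 bases for Hcrtr2 and 2189 for Mchr1. It was not computed with values multiplied back by length.

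The MCH precursor exceeded its receptor in every library, by margins that differed several-fold. The ratio of Pmch to Mchr1 in FPKM was 53.5, 49.2, 12.4 and 69.7 in replicates 1 to 4. On the log2 scale the difference was 5.25 ± 1.12 (SD, n = 4), positive in 4 of 4 libraries, and 5.80 without replicate 3. The margin depends on the length scaling, because the longest annotated transcript has 749 bases for Pmch and 2189 for Mchr1, and with values multiplied back by length it was 3.72. Both genes were highest in replicate 4 and lowest in replicate 3 and had the same order of libraries, but Mchr1 moved by a factor of 1.39 from its lowest to its highest library and Pmch by a factor of 7.81.

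The orexin precursor had no such steady margin over its receptors. The ratio of Hcrt to Hcrtr1 was 23.9, 1.28, 0.516 and 15.6 in replicates 1 to 4. In replicate 3 Hcrt therefore lay below Hcrtr1, and it lay below Mchr1 there too. The ratio of Hcrt to Hcrtr2 was 37.7, 2.41, 1.71 and 35.7 in replicates 1 to 4. The log2 difference was 1.98 ± 2.68 for Hcrt minus Hcrtr1, positive in 3 of 4 libraries, and 3.07 ± 2.41 for Hcrt minus Hcrtr2, positive in 4 of 4 (SD, n = 4). For Hcrt minus Hcrtr1 the SD exceeded the mean, and leaving out replicate 1, 2 or 3 gave 1.12, 2.52 and 2.95 in that order. Hcrt minus Hcrtr2 was 2.36 without replicate 1, 3.68 without replicate 2, 3.85 without replicate 3 and 2.39 without replicate 4. These differences also depend on the length scaling, because the longest annotated transcript has 586 bases for Hcrt, 2439 for Hcrtr1 and 3761 for Hcrtr2. With values multiplied back by length, Hcrt minus Hcrtr1 was -0.05, the opposite sign, and Hcrt minus Hcrtr2 was 0.44.

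Between the orexin receptors, Hcrtr2 was the lower in every library. The ratio of Hcrtr2 to Hcrtr1 was 0.634, 0.533, 0.301 and 0.437 in replicates 1 to 4. The log2 difference of Hcrtr2 minus Hcrtr1 was -1.09 ± 0.44 (SD, n = 4), larger than its spread. It was -1.16 without replicate 2, -0.90 without replicate 3 and -0.49 with values multiplied back by length.

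**Figure D2:**
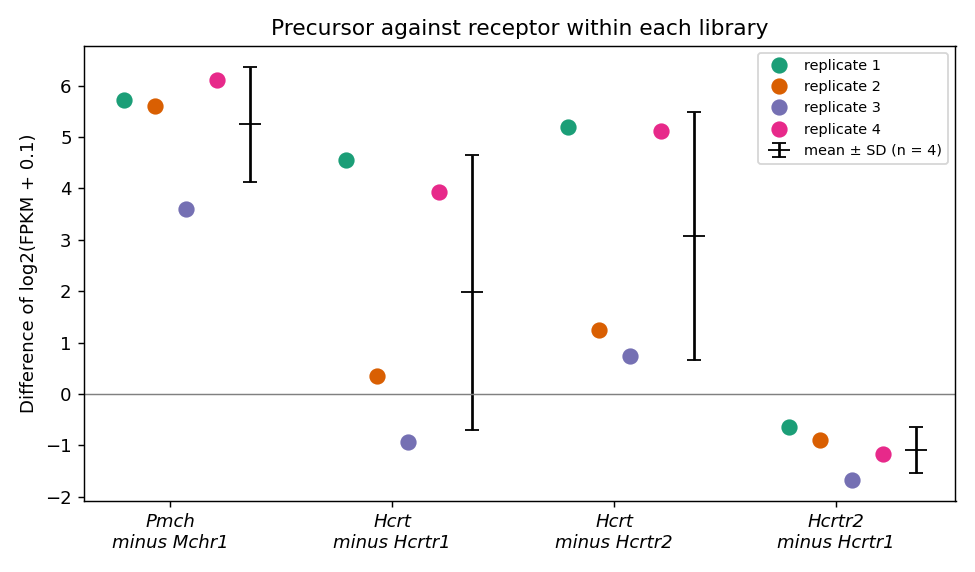
Differences of log2(FPKM + 0.1) between a precursor and its receptor, and between the 2 orexin receptors, within each library; points are libraries and the bars give the mean ± SD (n = 4). Pmch minus Mchr1 is 3.60 or more in all libraries, while Hcrt minus Hcrtr1 runs between -0.93 and 4.55.

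The precursors also differed from the receptors in how far they moved between libraries. The range of a gene is its highest minus its lowest log2(FPKM + 0.1) over the 4 libraries. It was 5.47 for Hcrt, 2.96 for Pmch and 1.46 for Cartpt, and 1.03 for Hcrtr2, 0.47 for Mchr1 and 0.26 for Hcrtr1. The median range of the 6 genes was 1.24, beside 0.29 over all 13044 genes and loci. A range of 4-fold or more was reached by 2 of the 6 genes, Hcrt and Pmch, and by 0.935% of all (122 of 13044), and a range of 2-fold or more by 4 of the 6 and by 5.40% of all. Since the 6 genes were chosen with their behaviour in these libraries known, their share is not read against these percentages. Only 13 genes or loci had a larger range than Hcrt and 59 a larger range than Pmch. The Pmch range rests on replicate 3 and was 0.74 without it, under 4-fold. That of Hcrt was 3.94 without replicate 3 and 5.47 without replicate 2. Without replicate 3 the ranges of Mchr1 and Hcrtr2 were 0.23 and 0.31.

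**Figure D3:**
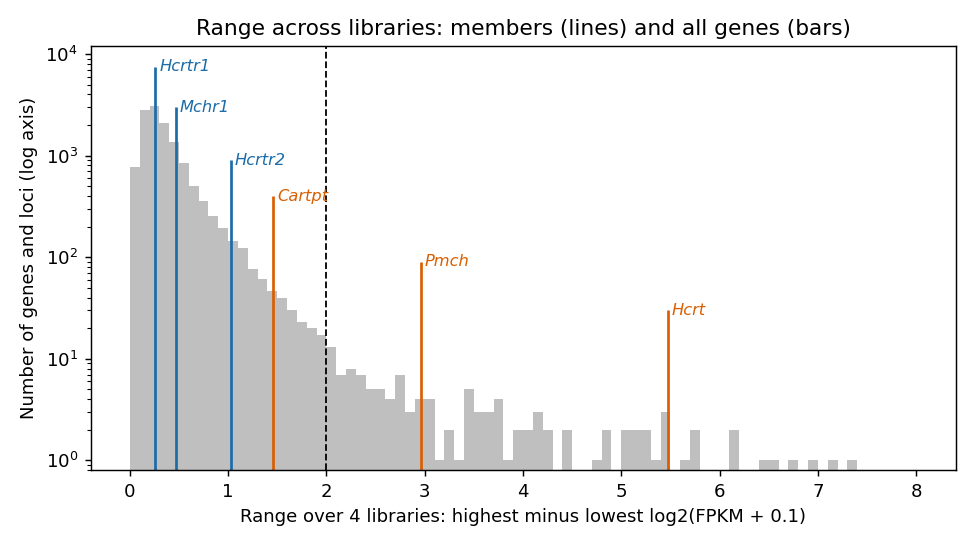
Range over the 4 libraries (highest minus lowest log2(FPKM + 0.1)) of all genes and loci averaging at least 1 FPKM (grey bars, number on a log axis), with the 3 precursors (orange lines) and the 3 receptors (blue lines); the dashed line marks 4-fold. Hcrt at 5.47 and Pmch at 2.96 lie past it, and the receptors at 0.26 to 1.03 do not.

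The 3 precursors did not follow 1 common pattern over the libraries. Replicate 3 was the lowest library for 4 of the 6 genes, Pmch, Hcrt, Mchr1 and Hcrtr2, as it was for 38.2% of all genes and loci. Hcrt and Pmch parted in replicate 2, where Hcrt lay 1.49 below its mean on the log2 scale while Pmch lay 0.29 above its own. The ratio of Pmch to Hcrt was accordingly 2.72, 33.4, 21.1 and 4.69 in replicates 1 to 4, with Pmch the higher gene in 4 of 4. Cartpt lay 0.71 below its mean in replicate 1, where Pmch lay 0.62 and Hcrt 2.45 above theirs. In replicate 3, where Pmch and Hcrt lay 1.94 and 3.02 below their means, Cartpt lay 0.33 below.

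Likeness between genes was measured as the root mean square distance of their log2 values over the 4 libraries, each centred on its own mean, and 0 would be the same pattern. The distances were not taken again without replicate 2 or 3, so those of Pmch rest largely on its low level in replicate 3. Between Pmch and Hcrt it was 1.48, between Pmch and Cartpt 1.05 and between Hcrt and Cartpt 2.35. Pmch was the fourth nearest to Hcrt of 12544 genes with a symbol, after Myl12b at 1.26, Ptp4a1 at 1.34 and Parpbp at 1.39, and before the haemoglobin gene Hba-a2, which has a near-identical copy, at 1.51. Myl12b, a myosin light chain gene, and Ptp4a1, a phosphatase gene, are both listed at 0 in replicate 3, so their distances depend on the value added before taking logarithms. From the side of Pmch the same distance was among the farthest, and 12800 of the 13043 other genes and loci lay nearer to Pmch than Hcrt did. No gene was close to Hcrt, as few genes varied this much. The nearest to Cartpt were Lhx2 at 0.16, a homeobox gene, Klhl11 and Atp13a1 at 0.19, the muscarinic receptor gene Chrm4 at 0.20 and Efcc1 at 0.21.

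The receptors, whose ranges were smaller than those of the precursors, had very near neighbours. These were Grm5, a metabotropic glutamate receptor gene, and Lrrtm4 at 0.01 and Pprc1 at 0.02 for Mchr1. For Hcrtr1 they were Gpr89, Eif4g1 and Tmem28, all at 0.01, and for Hcrtr2 Prlr, the prolactin receptor gene, at 0.03, Clic6 at 0.05 and Pnp2 at 0.05. Such distances single out little over 4 libraries: 5573 genes and loci lay nearer to Mchr1 than Hcrtr1 did, at 0.20.

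The genes nearest to Pmch were Zbtb9, a zinc finger gene, at 0.17, Parpbp at 0.21 and Abl2, a tyrosine kinase gene, at 0.23, followed at 0.47 by Rrad and by the ribosomal protein gene Rps27, whose value is uncertain because it has near-identical copies. Parpbp, which encodes a PARP1-binding protein, lies on the opposite strand and overlaps Pmch. In GENCODE M21 on GRCm38 it spans chromosome 10, 88091432 to 88146941, and an exon of 1 of its 4 transcripts covers 435 of the 749 exon bases of Pmch, or 58.1%. Parpbp was at 2.57, 1.45, 0.392 and 3.24 FPKM in replicates 1 to 4. These are 0.790%, 0.564%, 0.715% and 0.755% of the Pmch level in the same libraries. The use of strand in counting is not given in the sources used here, so reads of the overlap cannot be told apart between the genes. Whether Pmch reads enter the Parpbp values was not tested.

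**Figure D4:**
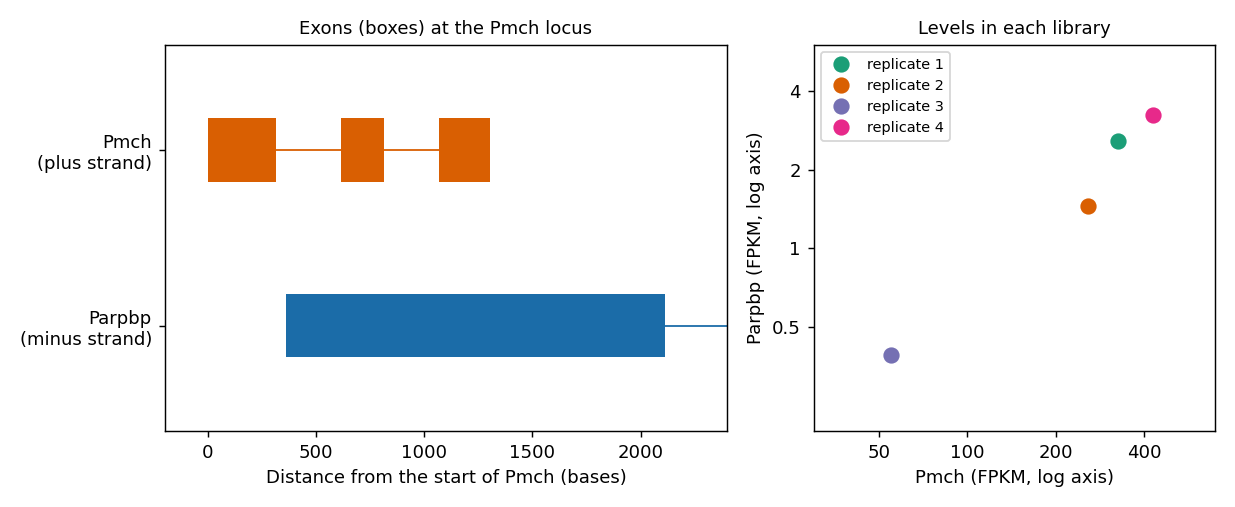
Left, annotated exons (boxes) of Pmch and of the part of Parpbp that overlaps it, by distance in bases from the start of Pmch; right, Parpbp against Pmch levels (FPKM, log axes), 1 point per library. An exon of Parpbp lies across the second and the third exon of Pmch, and Parpbp lies at 0.564% to 0.790% of the Pmch level.

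Other genes known from orexin neurons did not show the spread of Hcrt. Of 12 such genes, 10 averaged at least 1 FPKM, and 1 of these, the homeobox gene Lhx9, had a range of 4-fold or more, as 0.935% of all genes and loci did. Lhx9 was at 0.614 and 0.589 FPKM in replicates 1 and 2, 2.73 in replicate 3 and 1.89 in replicate 4. It was highest in replicate 3, where Hcrt was lowest and the thalamus genes described below were highest. The 2 most abundant of the orexin neuron list, the secretogranin gene Scg2 at 323 ± 49.7 FPKM and the synaptotagmin gene Syt4 at 56.6 ± 8.38 FPKM (SD, n = 4), occur in many neurons. The median range of the 10 genes was 0.76, and 7 were lowest in replicate 3, beside 38.2% of all genes and loci. Without replicate 3 the median range was 0.43, and Lhx9 was no longer past 4-fold without replicate 2 or without replicate 3. Ranges of the 10 genes ran from 0.06 to 2.04. The glutamate transporter gene Slc17a6, used by both kinds of neuron, had a range of 0.47 and was lowest in replicate 2.

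Of 8 genes known from MCH neurons, 7 averaged at least 1 FPKM, and 2 of these, Parpbp and the zinc finger gene Zic1, had a range of 4-fold or more, beside 0.935% of all genes and loci. Parpbp overlaps Pmch, and whether Pmch reads enter its values was not tested, so it cannot be taken as a measure separate from Pmch. Zic1 was at 3.59, 1.62, 16.5 and 3.06 FPKM in replicates 1 to 4. It was highest in replicate 3, where Pmch was lowest and the thalamus genes described below were highest. The neurokinin 3 receptor gene Tacr3 averaged 6.75 ± 1.99 FPKM and Gad1, an enzyme gene of GABA synthesis, 119 ± 20.5 FPKM (SD, n = 4). Tacr3, which was at 4.44 FPKM in replicate 3 and 6.30 to 9.27 FPKM in the others, was lowest in the same library as Pmch but highest in replicate 2. The median range of the 7 genes was 1.04, and 3 were lowest in replicate 3, a share near the 38.2% of all genes and loci. Replicate 2 was the highest library for 5 of the 7, beside 29.3% of all genes and loci, while Pmch was highest in replicate 4. The median range was 0.64 without replicate 2, and without replicate 3 none of the 7 was past 4-fold.

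Of 11 other peptide and regional genes of the lateral hypothalamus and zona incerta, 9 averaged at least 1 FPKM. Of these, 8 were lowest in replicate 3, beside 38.2% of all genes and loci. Their summed level was 127 FPKM in replicate 3 and 204 to 219 FPKM in the others. A range of 4-fold or more was found for Gal, the galanin gene, at 4.53 FPKM in replicate 3 and 11.7 to 23.1 in the others, for the calcitonin receptor gene Calcr at 0.764 and 3.06 to 4.78 FPKM, and for Lhx6, a homeobox gene, at 0.555 and 0.868 to 3.16 FPKM. The substance P precursor Tac1, at 46.9 to 91.7 FPKM, and the enkephalin precursor Penk, at 49.6 to 76.5 FPKM, were lowest in replicate 3 too. The median range of the 9 genes was 0.97, and without replicate 3 it was 0.57 and none of them was past 4-fold.

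Genes of neighbouring regions moved in the same libraries as Hcrt and Pmch. In replicate 3, where both precursors were lowest, all 6 thalamus genes were highest, as were 22.3% of all genes and loci, and 5 had a range of 4-fold or more. Prkcd, a protein kinase C gene, was at 172 FPKM there and 3.72 to 13.4 FPKM elsewhere, and Tcf7l2, a Wnt pathway transcription factor gene, at 42.0 and 6.14 to 17.6 FPKM. Rgs16, Slc17a7 and Synpo2 were at 35.7, 30.6 and 9.69 FPKM in replicate 3 and at no more than 8.22, 13.9 and 1.96 FPKM elsewhere. The thalamus genes thus set replicate 3 apart, and 1 of the 6 was past 4-fold without it. In replicate 2, where Hcrt was low and Pmch was not, all 6 medial hypothalamus genes that averaged at least 1 FPKM were highest, as were 29.3% of all genes and loci, and 4 had a range of 4-fold or more. These were the vasopressin gene Avp at 90.5 FPKM there and 2.17 to 18.3 elsewhere, the oxytocin gene Oxt at 44.0 and 1.11 to 3.28, Pomc at 30.1 and 2.83 to 8.65, and Agrp at 8.63 and 0.666 to 2.20 FPKM. Without replicate 2, 1 of the 6 was past 4-fold. Npy, the other of the 2 most abundant, was at 41.0 FPKM in replicate 2 and 16.4 to 20.7 FPKM elsewhere.

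The summed level of 8 midbrain dopamine genes was 957 FPKM in replicate 2 and 497 to 524 FPKM elsewhere, with 7 of the 8 highest in replicate 2. Among them, Th, the rate-limiting enzyme gene of dopamine synthesis, averaged 137 ± 57.4 FPKM and Aldh1a1 194 ± 45.7 FPKM (SD, n = 4). The 5 parasubthalamic genes summed to 468, 330, 294 and 410 FPKM in replicates 1 to 4, a sum high and low in the same libraries as Hcrt. None of the 5 had a range of 4-fold. Slc17a6 did not follow the sum, being lowest in replicate 2 and at 82.7 and 81.7 FPKM in replicates 3 and 4. Tac1, Crh and Slc17a6 of that list stand in the other lists too. Of the subthalamic genes, the parvalbumin gene Pvalb averaged 66.4 ± 14.7 FPKM (SD, n = 4). General neuron genes (Snap25, Syt1 and Rbfox3) summed to 1241 to 1472 FPKM, astrocyte genes (Gfap, Slc1a3 and Aqp4) to 181 to 233 FPKM and microglia genes (P2ry12, Tmem119 and Cx3cr1) to 25.5 to 31.5 FPKM. The oligodendrocyte gene Mbp, for a myelin protein, averaged 4560 ± 651 FPKM (SD, n = 4). None of these cell type genes had a range of 4-fold. The part of these regional and cell type differences in the precursor levels was not tested.

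**Figure D5:**
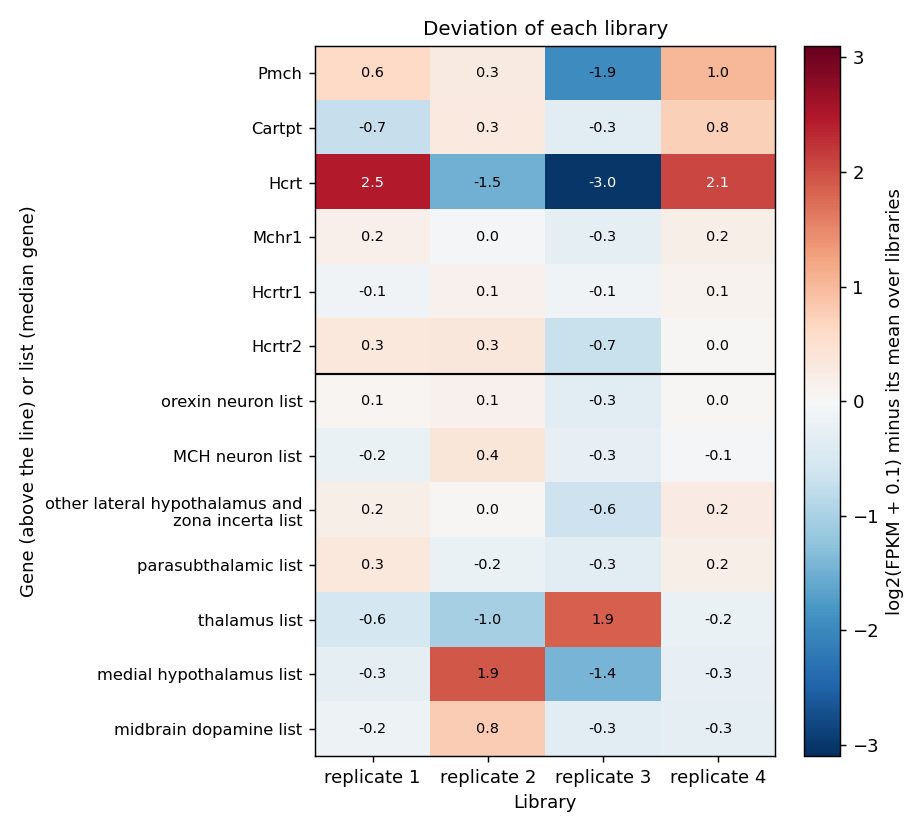
Deviation of each library from the mean over libraries, in log2(FPKM + 0.1), for the 6 genes (above the line) and for the median gene averaging at least 1 FPKM of 7 lists (below it); red is above the mean and blue below. Hcrt lies at 2.45 and 2.06 in replicates 1 and 4 and at -3.02 in replicate 3, where the thalamus list is at 1.86.

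The machinery that acts on these peptides and their receptors was present at steadier levels. Of 7 genes for cutting and modifying precursors, all had a mean of at least 11 FPKM, the carboxypeptidase gene Cpe being highest at 1278 ± 84.5 FPKM, followed by Pcsk1n, an inhibitor of a precursor-cleaving convertase, at 280 ± 29.0 FPKM (SD, n = 4). Their median range was 0.35 and 4 were lowest in replicate 3, beside 38.2% of all genes and loci. Of 5 genes for the Gi and Go family, through which Mchr1 mainly signals, Gnao1 averaged 135 ± 5.13 FPKM and Gnai2 119 ± 10.8 FPKM (SD, n = 4), the median range was 0.22, and all 5 were lowest in replicate 3, as were Mchr1 and that 38.2% of all.

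MCH receptor protein is carried to the primary cilium of neurons. A list of 14 genes of cilia and of transport to them was examined, which is not particular to this receptor. All 14 averaged at least 1 FPKM, the highest being Bbs4, a subunit of the BBSome coat complex, at 21.2 ± 1.04 FPKM and Mrap2, a receptor accessory protein, at 15.2 ± 2.80 FPKM (SD, n = 4). Of the 15 genes listed for Gq signalling of the orexin receptors, 13 averaged at least 1 FPKM, among them Prkcb, a protein kinase C gene, at 45.4 ± 4.96 FPKM and the G protein gene Gna11 at 30.4 ± 1.32 FPKM (SD, n = 4). The median range was 0.30 for the cilium genes and 0.38 for the Gq genes, beside 0.29 over all genes and loci. None of the genes of these 4 lists had a range of 4-fold or more.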

How the data were processed

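RNA was extracted with TRIzol and libraries were made with an mRNA kit for Illumina, per the labels' protocols. The assembly was GRCm38, per the submitters' processing notes. The aligner, quantification, annotation and strand setting were not given in the sources used here, and the authors' deposited values were read as FPKM from their behaviour. Between 11.7% and 23.4% of low values in genes with 1 transcript came within 0.05 of a whole number of steps, so reads were not recovered and no counting intervals were made. The column headed with C in place of a number was taken as replicate 3 from its sample's title. No per-sample columns were left unused. Of 22036 Ensembl identifiers, 22022 matched a GENCODE M21 symbol, and 3008 entries had no Ensembl identifier.

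Logarithms are log2(FPKM + 0.1), which understates differences of low genes. Genes and loci averaging at least 1 FPKM, 13044 in all, form the background. A gene was called when its highest library was at least 4-fold over its lowest on that scale. With 1 group, no comparison between groups was tested, and the criterion of Dixon was used only to mark single libraries far from the rest. The members and lists were chosen with earlier results of these data known. The genes named were the members, the 2 most abundant of each list and those past 4-fold, and the 5 nearest genes of each precursor and 3 of each receptor. Some genes summed as a list, shared between lists or overlapping a member are named too. Sums of the subthalamic and oligodendrocyte lists, and 1 gene of each, are not reported here. Alternatives were other added values, filters and scalings, no length correction and leaving out each library. Tables were made in Python 3.11.15 with pandas 2.3.3 and numpy 2.4.6, and figures with matplotlib 3.10.9.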

Additional observations from a re-analysis of the deposited data

Results flagged for a closer look

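Among 77 values examined, 12 had 1 library far from the remaining 3 under the criterion of Dixon, with 4 in replicate 2 and 8 in replicate 3. Chance flags about 1 in 20, but the values were chosen with results of these data known, and some list sums hold marked genes, so the number is not read against that share. None was a level of the 6 genes or a difference between them. In replicate 3 the values were Prkcd at 172 FPKM, Rgs16 at 35.7, Synpo2 at 9.69 and Zic1 at 16.5 FPKM, and the microglia gene P2ry12 at 12.5 FPKM beside 12.9 in the others. Also in replicate 3, the thalamus list summed to 300 FPKM, the list of other lateral hypothalamus and zona incerta genes to 127 FPKM and the Gq list to 226 FPKM, against 172 to 181 in the others. In replicate 2 they were Oxt at 44.0 FPKM and Th at 223 FPKM, the medial hypothalamus list at 225 FPKM and the midbrain dopamine list at 957 FPKM.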

How the results depend on the processing

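Of 182 alternative values of 28 results, 161 moved by less than the spread between libraries or, for counts, by less than 1.5 times, 20 moved further and 1 changed sign. With values multiplied by transcript length, Hcrt minus Hcrtr1 changed sign to -0.05, Pmch minus Mchr1 was 3.72, Hcrt minus Hcrtr2 0.44 and Hcrtr2 minus Hcrtr1 -0.49, which follows from the unequal transcript lengths. Leaving out each replicate gave ranges of 0.74 to 2.96 for Pmch, 0.23 to 0.47 for Mchr1 and 0.31 to 1.03 for Hcrtr2, the lowest each time without replicate 3. It gave 1.12 to 2.95 for Hcrt minus Hcrtr1 and a Hcrt level of 33.9 to 72.9 FPKM. The number of genes and loci with a 4-fold range, 122, was 67 with 1 added before taking logarithms, 902 with a filter of 0.1 FPKM and 1038 with none, where low genes enter, and 78 to 112 when a replicate was left out (78 without replicate 3). Scaling to equal totals or medians moved none of the ranges of the 6 genes by as much as their spread. No paired analysis was possible because the libraries form 1 group. The alternatives for the levels of the 6 genes, the Pmch minus Hcrt difference and the gene lists were chosen after seeing the data. The unknown read depth limits what can be said of the lowest values, such as Hcrt in replicate 3.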
